A study of Mus musculus with 23 samples.

Results

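Conventional CD4 T cells of the spleen are the helper T cells that carry the CD4 co-receptor and lack FOXP3, the factor that defines regulatory T cells. They were chosen barcode by barcode from the 3 spleen expression libraries of a study of mice with 1 changed tyrosine in STAT5B. A barcode was taken when it held at least 500 genes, at most 10% mitochondrial unique molecular identifiers (UMIs, the tags that mark single captured transcripts), at least 1 UMI of Cd4, at least 2 of Cd3d, Cd3e and Cd3g together, none of Cd8a or Cd8b1, at most 1 of Cd79a and none of Foxp3. The gate took 3577 of 19566 spleen barcodes that passed the quality limits, in a series with 139967 barcodes in 16 expression libraries.

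The labels give all mice as C57BL/6 and aged 2 months, and per the methods the alleles were made in C57BL/6N embryos. The wild-type (WT) spleen library gave 1322 cells, the STAT5B-Y665H library 1533 and the STAT5B-Y665F library 722. Y665H is a histidine knock-in made by base editing and Y665F a phenylalanine knock-in made with Cas9 and an oligonucleotide donor, both in the germline, so every cell type of a mouse carries the change. Each spleen library held sorted CD45+ leukocytes pooled from several mice of a genotype. The labels do not give the zygosity of the spleen mice. With 1 pooled library per genotype no test between genotypes was possible in spleen, and every interval given for spleen covers counting error only. Lymph node libraries of WT mice and of Y665F mice that were heterozygous (het) or homozygous (homo), which the gate was not drawn on, gave a replicated test.

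STAT5B is a transcription factor that the receptors of IL-7, IL-15 and IL-2 activate through the JAK1 and JAK3 kinases. Phosphorylated STAT5 dimerises through its SH2 domain, which holds the tyrosine changed here, and binds sites close to TTCNNNGAA. In CD4 T cells it is known for inducing its own feedback inhibitors of the CIS and SOCS family, the survival factor BCL2 and the IL-2 receptor chains, and for opposing the follicular helper factor BCL6.

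The codon of that tyrosine and examples of a known kind of STAT5 target site are shown first. Whether any difference below depends on such a site was not tested. The codon of the tyrosine lies in exon 16 of 19 of Stat5b, on the minus strand at chr11:100787291-100787293 of GRCm38. The reference stretch at chr11:100787276-100787308 is printed on the coding strand with the codon in capitals, followed by the donor used for Y665F over the same bases, with its 2 changed bases in capitals. The guide RNA target at chr11:100787287-100787309, on the plus strand, has its PAM in capitals, and the same guide is listed for both alleles. The methods also name a silent change in the donor, which the listed donor of 133 bases does not hold.
Stat5b reference: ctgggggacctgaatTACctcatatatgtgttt
Y665F donor: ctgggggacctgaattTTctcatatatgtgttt
Guide target: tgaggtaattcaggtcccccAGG

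The promoter of Cish, which encodes the feedback inhibitor CIS, held 2 matches to TTCNNNGAA in the RefSeq promoter table (GRCm38.p6, 250 bases before to 50 after the gene start), at chr9:107296654-107296683 on the plus strand. That of Socs3, another feedback inhibitor, held 1 match, at chr11:117969501-117969530 on the minus strand. Matches are in capitals. The motif reads alike on both strands.
Cish promoter: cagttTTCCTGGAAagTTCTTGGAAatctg
Socs3 promoter: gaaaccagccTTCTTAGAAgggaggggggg
The Cish matches begin 0 and 11 bases after the RefSeq start, and the Socs3 match begins at position -154. Of the 8 listed CIS and SOCS feedback inhibitors 4 had a promoter entry, and only 2 of these, the 2 shown, held a match. TTCNNNGAA was present in 2726 of 32851 promoters (8.3%). Of the 12 genes that led the increase in Y665F below, 9 had a promoter entry and 1, Cish, held a match, as did 0 of 9 such entries among the 12 that led the decrease.

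Markers of the gate were read before any comparison. Median depth was 5794.5 UMIs per cell in WT, 5587 in Y665H and 6459.5 in Y665F, and the summed libraries held 7928840, 9007077 and 4807827 UMIs. Many cells lay at the edge of the gate, since 40.5% (WT), 41.4% (Y665H) and 42.9% (Y665F) held a single Cd4 UMI, and 686, 701 and 411 barcodes met every other limit with none. A Cd3 sum of exactly 2 was held by 0.681%, 0.522% and 0.554% of cells, while 10, 17 and 4 barcodes fell just short of it. A single Cd8 UMI kept out 201, 211 and 70 barcodes. Levels of Cd4, the Cd3 genes, Cd8a, Cd8b1, Cd79a and Foxp3 follow from the gate and are not results. Barcodes found in a pair of libraries numbered 12 for WT and Y665H, 7 for WT and Y665F and 18 for both mutants, and among the chosen cells 1 was shared.

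RNA of other cell types differed between the libraries and stands beside every result that follows. Levels are given as CPM, the UMIs of a gene scaled to a common total over all UMIs of the chosen cells of a library. The 11 neutrophil markers summed to 25.5 CPM in WT, 1128 in Y665H and 3202 in Y665F, and 2 of them were at 0 in WT. The same markers reached 33.6, 1335 and 828 CPM in B cells. In WT 12.9% of the CD4 T cells held a UMI of them, against 85.3% in Y665H and 85.3% in Y665F, where 1% of the cells held 89.9% of those UMIs (68.0% in Y665H). The 12 B cell markers summed to 717, 866 and 351 CPM, and the red cell and platelet markers to 10.97, 180 and 3.12. Cells with 1 Cd79a UMI, which the gate admits, made up 9.61%, 11.2% and 3.19%. Plasma cell markers summed to 45.7, 51.4 and 33.3 CPM, and monocyte, macrophage and dendritic cell markers to 86.8, 142 and 184. Transcripts of Gm42418, which overlaps ribosomal RNA, took 1.503%, 1.095% and 3.20% of UMIs, and the median mitochondrial share was 3.19%, 2.998% and 3.87%. Their part in the results was not tested. Genes at least as high in B cells, or 10 times higher in neutrophils, were left out of the leading genes of each comparison and are named below only as members of a list.

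How large was the CD4 compartment? Conventional CD4 T cells made up 19.6% of kept barcodes in WT (95% interval 18.7 to 20.6). The share was 19.5% (18.6 to 20.4) in Y665H and 14.6% (13.6 to 15.6) in Y665F. The Y665F share was 0.744 times that of WT (0.685 to 0.809), and the Y665H share 0.993 times. Per CD8 T cell there were 0.735 conventional CD4 T cells in WT, 1.07 in Y665H and 0.370 in Y665F. Per Foxp3+ cell there were 10.2, 11.5 and 3.86. The Y665F library thus had the lowest value by each denominator, and Y665H the highest per CD8 T cell. As shares of 1 total, these values move with every other cell type in the library.

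More genes differed from WT by at least 2-fold in Y665F than in Y665H. Of 7493 genes at a mean of at least 10 CPM, 123 (1.64%) differed at least 2-fold between Y665F and WT, 68 of them higher (0.908%) and 55 lower (0.734%). Y665H differed from WT at that size in 38 genes (0.507%), with 36 higher (0.48%) and 2 lower (0.0267%). The 2 lower genes, Drc1 and Socs2, reached the filter only through their Y665F level. With the mean taken over the 2 libraries compared, an alternative chosen after seeing the data, 34 genes were higher and 0 lower in Y665H, and 69 higher and 44 lower in Y665F. Both comparisons use the same WT library. The Y665F sum held 4807827 UMIs against 9007077 in Y665H, so ratios of Y665F carry more counting error. Its part in the larger count was not tested. The median gene lay at -0.15 on the log2 scale in Y665F, and scaling by the median ratio in place of total UMIs gave 89 higher and 31 lower genes in Y665F. In Y665H the median was 0.01. After genes of B cell or neutrophil type and the other kinds that the naming rule leaves out were set aside, 37 higher and 29 lower genes were left in Y665F, and 10 higher and 2 lower in Y665H.

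Among the inhibitors that STAT5 induces against itself, Cish, Socs1 and Socs2 were at least 2-fold higher in Y665F CD4 T cells, and the other 4 measured were not past 2-fold. These are the 7 members of the CIS and SOCS family measured at 10 CPM or more, of which 0 were 2-fold lower in Y665F, with a median log2 ratio of 0.81. In Y665H 0 were higher and 1 was lower, Socs2, with a median of -0.07. The shares over all genes were 0.908% higher in Y665F and 0.0267% lower in Y665H. Socs2 reached the filter only through Y665F, so its part in the counts and medians of both mutants follows partly from the filter. Cish (ENSMUSG00000032578, chr9:107296026-107302784, plus strand) stood at 20.4 CPM in WT, 14.7 in Y665H and 102 in Y665F. The log2 ratio to WT was 2.32 (2.07 to 2.59) in Y665F and -0.48 (-0.82 to -0.14) in Y665H, so in summed CPM the mutants lay on opposite sides of WT beyond counting error, while the share of cells with Cish at equal depth, given below, was no lower in Y665H than in WT. Its exons overlap the antisense genes Gm17040 and Gm17041. Socs2 (ENSMUSG00000020027, chr10:95385362-95417180, minus strand), which encodes an inhibitor of cytokine and growth hormone signals, stood at 4.16, 1.89 and 32.2 CPM. Its log2 ratios were 2.95 (2.40 to 3.54) in Y665F and -1.14 (-2.08 to -0.26) in Y665H. Socs1, the inhibitor of JAK kinases, was at 40.9, 44.2 and 104 CPM, a log2 ratio of 1.35 (1.15 to 1.56) in Y665F and 0.11 (-0.10 to 0.33) in Y665H. Socs3 differed from these. It stood at 30.9, 53.3 and 54.3 CPM, a log2 ratio of 0.81 in Y665F and 0.79 in Y665H, so both mutants were above WT by a similar amount. The lymph node value of Socs3, given with those libraries below, had the opposite sign, which turned when 1 WT library was left out. Socs4, Socs6 and Socs7 lay between -0.43 and 0.06 in both mutants.

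**Figure D1:**
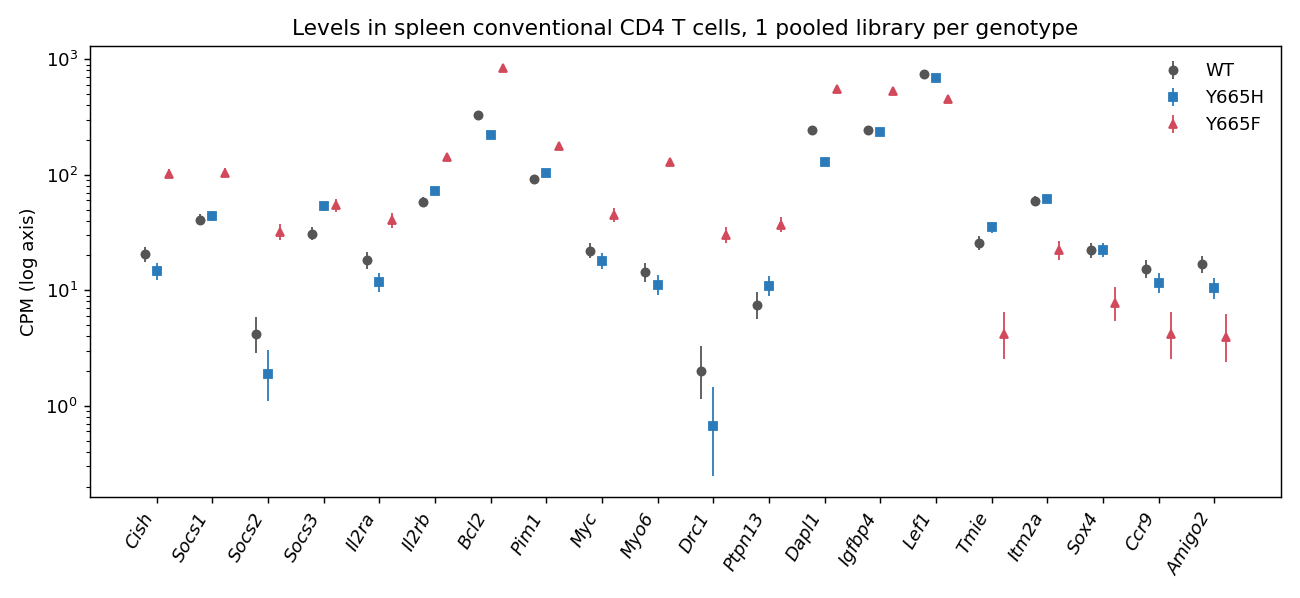
Levels of 20 genes in spleen conventional CD4 T cells, in CPM on a log axis, with 1 point per genotype (WT, Y665H, Y665F) and 95% Poisson intervals as bars. Cish stands at 20.4, 14.7 and 102 CPM, and Tmie at 25.9, 35.0 and 4.16 CPM.

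The same genes were found in more cells. After each cell was thinned to 2000 UMIs, Cish was seen in 3.20% of WT, 3.22% of Y665H and 15.1% of Y665F cells, against at most 0.143% of B cells in any library. Socs2 was seen in 0.457%, 0.329% and 5.82% of cells, of which the WT and Y665H shares lie at the B cell level of 0.282% to 0.598%. Socs1 was seen in 8.52%, 7.43% and 16.5%, against 1.06%, 1.47% and 2.15% of B cells. Median depths of the B cells were 3930, 3907.5 and 3845 UMIs before thinning. No single cell carried the Cish value, since the top Y665F cell held 2.24% of its UMIs. Foxp3+ cells, read below, had higher Cish levels than the chosen cells in every library. Those without a captured Foxp3 UMI would pass the gate, and their part in the Cish level was not tested.

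Most survival and growth genes linked to STAT5 lay above WT in Y665F. Of 14 measured, 11 were above 0 and 3 below, where 2110 of all 7493 genes lay above 0. At least 2-fold higher were 3 and lower 2 in Y665F, with a median of 0.28, against 0 and 0 in Y665H with a median of 0.06. Bcl2 (ENSMUSG00000057329, chr1:106538178-106714274, minus strand), the mitochondrial survival factor, stood at 332 CPM in WT, 220 in Y665H and 840 in Y665F. Its log2 ratio was 1.34 (1.27 to 1.41) in Y665F and -0.60 (-0.68 to -0.51) in Y665H. It was seen in 38.1% of WT, 29.0% of Y665H and 68.0% of Y665F cells at 2000 UMIs, against 21.8% to 23.8% of B cells. Ccnd2, the cyclin of early cell cycle entry, followed the same order at a smaller size, with 556, 444 and 710 CPM. Myc, the growth regulator, was at 22.1, 17.99 and 44.9 CPM, and Tnfrsf4, the co-stimulatory receptor OX40, at 23.1, 27.6 and 81.3 CPM. The kinase gene Pim1 stood at 91.4, 104 and 179 CPM, a log2 ratio of 0.97 (0.82 to 1.11) in Y665F. The 2 lower genes were Bcl6, at 11.2, 15.8 and 5.20 CPM, and Irf8, a factor of myeloid and B cells, at 12.1, 16.1 and 4.16 CPM, and both reached the filter only through their Y665H level. The log2 ratio of Bcl6 was -1.11 (-1.81 to -0.46) in Y665F and 0.49 (0.10 to 0.89) in Y665H. Gzmb, the cytotoxic protease granzyme B, was below the filter, with 7, 8 and 104 UMIs. Those 104 UMIs came from 40 Y665F cells, and 1 cell held 16.3% of them.

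The IL-2 receptor chains that are induced on activation were higher in Y665F, while the common chain was not. Of the 6 receptor genes of the common gamma chain family, 2 were at least 2-fold higher in Y665F and 0 lower. The shares over all genes were 0.908% higher and 0.734% lower. Il2rb, the chain shared by the IL-2 and IL-15 receptors, stood at 58.4, 71.7 and 142 CPM, and Il2ra, the high-affinity chain CD25, at 18.2, 11.8 and 40.4 CPM. The log2 ratio of Il2ra was 1.15 (0.83 to 1.47) in Y665F and -0.63 (-1.002 to -0.25) in Y665H. Il2ra is also counted with the regulatory T cell genes below, and Foxp3+ cells without a captured Foxp3 UMI would pass the gate. Their part in its level was not tested. Il7r, at 737, 706 and 587 CPM, had a log2 ratio of -0.33 in Y665F, and Il2rg, the common chain itself, lay at 308, 306 and 292 CPM. The 11 JAK and STAT genes had 0 members past 2-fold in either mutant, with medians of -0.14 in Y665F and 0.14 in Y665H. Stat5b itself stood at 98.8, 92.8 and 70.1 CPM, a log2 ratio of -0.49 (-0.68 to -0.31) in Y665F, and Stat5a at 25.7, 29.3 and 20.4 CPM. Among the 17 T-cell receptor signalling and co-receptor genes, which include those of the gate, 0 were past 2-fold, with medians of -0.21 and 0.03.

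The leading genes of the Y665F comparison were ranked by log2 ratio among genes at a mean of 10 CPM or more, with genes of B cell or neutrophil type and the other kinds named with the naming rule left out. Drc1 (ENSMUSG00000073102, chr5:30281388-30366695, plus strand), known as a subunit of the dynein regulatory complex of cilia, stood at 2.02 CPM in WT, 0.666 in Y665H and 30.2 in Y665F. That is a 14.9-fold difference between Y665F and WT, a log2 ratio of 3.90 (3.15 to 4.75). Y665H lay below WT, with 6 UMIs against 16, a log2 ratio of -1.60 (-3.24 to -0.17). Myo6 (ENSMUSG00000033577, chr9:80165031-80311729, plus strand), an actin motor that moves towards filament minus ends, stood at 14.4, 11.2 and 130 CPM. Its log2 ratio was 3.17 (2.88 to 3.47) in Y665F, and it was seen in 2.05%, 1.78% and 17.6% of cells at 2000 UMIs, against at most 0.923% of B cells. Ptpn13, a tyrosine phosphatase, was at 7.44, 10.99 and 37.0 CPM. Pdcd1, the inhibitory receptor PD-1, stood at 4.79, 13.7 and 13.3 CPM, so both mutants lay above WT to a like degree. Their log2 ratios were 1.47 (0.87 to 2.09) in Y665F and 1.51 (0.98 to 2.08) in Y665H. Others of the 12 were Socs2, Cish, Tnfrsf4, Gm10130, Akr1c13, Gm26771 and Gna15, with log2 ratios from 1.37 to 2.95. The exons of Ptpn13 and Gm26771 overlap antisense genes. Among these leading genes Drc1, Socs2, Ptpn13 and Akr1c13 reached the filter only through Y665F, the library in which they were high. Pdcd1 reached it only with the levels of both mutants. The place of the genes just named in the ranking thus follows partly from the filter.

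Genes known from thymocytes and recent thymic emigrants were among the lowest in Y665F. Tmie (ENSMUSG00000049555, chr9:110865711-110880113, minus strand), whose product is part of the hair cell transduction channel, stood at 25.9 CPM in WT, 35.0 in Y665H and 4.16 in Y665F. The log2 ratio was -2.64 (-3.38 to -1.97) in Y665F and 0.44 (0.18 to 0.70) in Y665H, and its exons overlap the antisense gene Als2cl. It was seen in 4.64%, 6.51% and 0.554% of cells at 2000 UMIs. Ccr9, a receptor for thymic and gut homing, was at 15.3, 11.7 and 4.16 CPM, and Itm2a (ENSMUSG00000031239, chrX:107397099-107403376, minus strand), a membrane protein of activated thymocytes, at 59.7, 61.4 and 22.3 CPM. Myb, a factor of progenitors and thymocytes, stood at 38.3, 40.5 and 12.3 CPM. The list of recent thymic emigrant genes had 7 measured members, of which 5 were at least 2-fold lower and 1 higher in Y665F, with a median of -1.53, against 0 of 7 in either direction in Y665H with a median of 0.33. Sox4, at 22.2, 22.2 and 7.70 CPM, was another of the 5. The fifth, Ly6d, is also a B cell gene and like Ccr9 reached the filter only through Y665H, and the 1 higher gene, Plac8, is also known from myeloid cells. Across all 7493 genes 0.734% were at least 2-fold lower and 0.908% higher in Y665F, with a median of -0.15. This list was chosen with earlier results of these data known. It shares its lowest gene, Tmie, with genes earlier called in lymph node, so its counts and median follow partly from that choice. The other leading genes were Gm14085, Amigo2, Gm12840, Tubb2a, Lef1os1, Patj and the hemoglobin genes Hbb-bs and Hba-a1. Hbb-bs stood at 5.68, 97.5 and 1.04 CPM beside the red cell markers given above. Hbb-bs and Hba-a1 likewise reached the filter only through their Y665H level.

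These leading genes were read in the other T cells of the same libraries, which the choice had not used. Of the 12 higher genes, 11 were higher in Y665F than in WT in Foxp3+ cells and 9 in CD8 T cells, with median log2 ratios of 1.18 and 1.48. Over all 7493 genes 3091 were higher in Foxp3+ cells and 1904 in CD8 T cells, with medians of -0.09 and -0.16. Of the 12 lower genes, 0 were higher in Y665F in either population, with medians of -1.12 and -1.58. Cish stood at 139, 87.0 and 294 CPM in the Foxp3+ cells of WT, Y665H and Y665F, and at 7.45, 9.22 and 26.8 CPM in CD8 T cells. Drc1 was at 2.05, 1.58 and 47.8 CPM in CD8 T cells. Dapl1 separated the populations, at 404, 245 and 389 CPM in CD8 T cells against 244, 129 and 551 CPM in conventional CD4 T cells. All populations come from the same 3 pooled libraries and are no replicates of the genotypes.

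Naive and memory genes were then compared, since the CD4 T cells of a spleen are mixed in age and history. Of 14 naive T cell genes, 2 were at least 2-fold higher and 0 lower in Y665F, but the median was -0.32 and 3 of 14 were above 0, beside a median of -0.15 and 2110 of 7493 above 0 over all genes. Lef1, a factor that keeps T cells naive, stood at 741, 689 and 452 CPM. Satb1, a chromatin organiser, was at 775, 697 and 477 CPM. The 2 higher genes went against the rest. Dapl1 (ENSMUSG00000026989, chr2:59484653-59505020, plus strand) had a log2 ratio of 1.18 (1.09 to 1.26) in Y665F and -0.92 (-1.02 to -0.81) in Y665H. Igfbp4, a binding protein of insulin-like growth factors, stood at 242, 235 and 532 CPM. In Y665H, 0 of the 14 were past 2-fold, with a median of -0.16.

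Memory and activation genes lay higher in Y665F. Of 21 measured, 18 were above 0, 4 were at least 2-fold higher and 1 was lower, with a median of 0.51, against 2 higher, 0 lower and a median of 0.15 in Y665H. In Y665H 14 of the 21 were above 0. Of all 7493 genes 2110 lay above 0 in Y665F and 4001 in Y665H, with medians of -0.15 and 0.01. At least 2-fold higher were 0.908% of them in Y665F and 0.48% in Y665H, and 0.734% were lower in Y665F. Lgals1, the lectin galectin-1, stood at 140, 164 and 327 CPM, and S100a6, a calcium-binding protein, at 94.7, 166 and 229 CPM. S100a4, of the same family, stood at 85.0, 132 and 167 CPM. The other 2 genes past 2-fold, Anxa1 and Lgals3, were also past 2-fold in Y665H, with log2 ratios of 4.08 and 2.49 in Y665F and 2.72 and 1.54 in Y665H, and both are known from myeloid cells. In Y665H both reached the filter only through their Y665F level. The lower gene was Cxcr6, with a log2 ratio of -1.01. Cd44, the adhesion receptor used to mark memory cells, was at 45.7, 59.4 and 64.9 CPM.

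**Figure D2:**
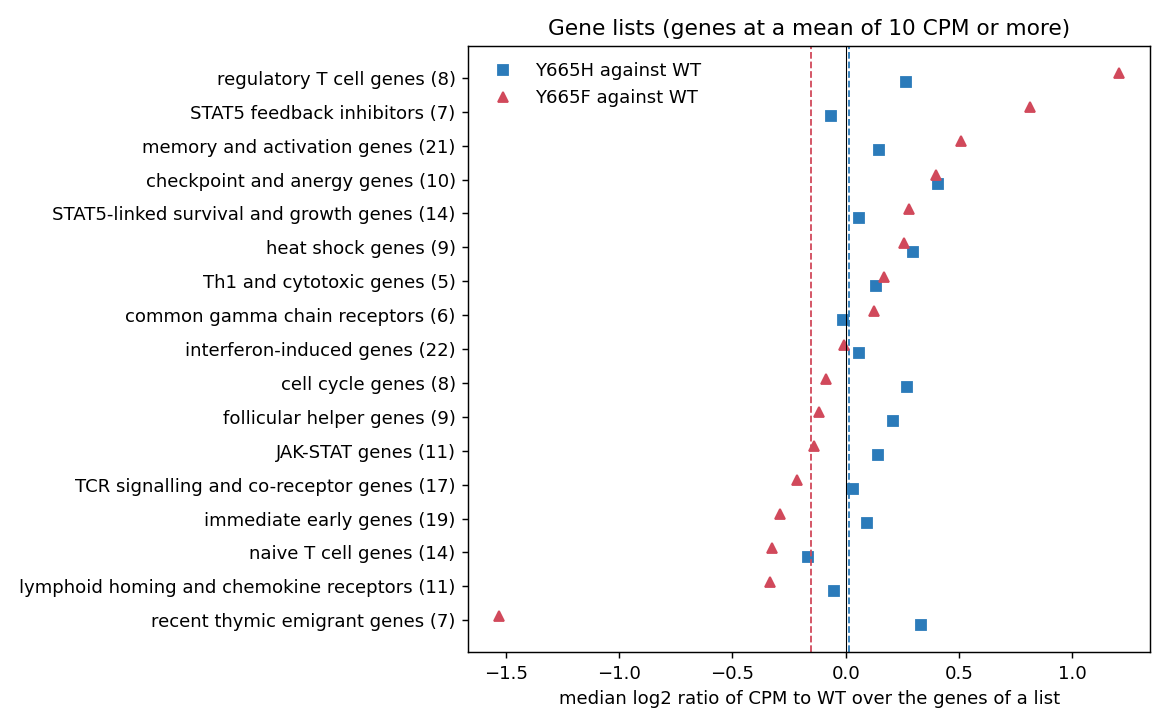
Median log2 ratio of CPM to WT over the measured genes of each list, for Y665F (triangles) and Y665H (squares), with the number of genes in brackets and dashed lines at the medians of all genes (-0.15 and 0.01). Among the lists drawn, which have at least 5 measured genes and leave out markers of other cell types and genes earlier called in lymph node, regulatory T cell genes lie highest in Y665F at 1.21 and recent thymic emigrant genes lowest at -1.53. The lists were chosen with earlier results of these data known.

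Genes known from regulatory T cells were higher although every chosen cell had 0 Foxp3 UMIs. Of 8 measured, 7 were at least 2-fold higher in Y665F, with a median of 1.21, against 0 in Y665H with a median of 0.27. The shares over all 7493 genes were 0.908% in Y665F and 0.48% in Y665H, with medians of -0.15 and 0.01. Ikzf2, which encodes the factor Helios, stood at 78.8, 96.8 and 163 CPM. Ctla4, the checkpoint receptor, was at 14.8, 18.1 and 36.0 CPM, Tnfrsf18, the receptor GITR, at 50.7, 51.8 and 110 CPM, and Nt5e, the ectoenzyme CD73, at 28.1, 39.7 and 67.6 CPM. Capg, an actin-capping protein, had the highest ratio, with 26.6, 32.2 and 106 CPM. Foxp3+ cells were also more frequent in Y665F, with 129, 133 and 187 barcodes, and a Foxp3+ cell without a captured Foxp3 UMI would pass the gate. Its part was not tested. With Ikzf2 also required to be 0, all 24 genes named for Y665F kept their direction and their 2-fold size, while the Y665F median of the checkpoint and anergy genes became 0.21. A Foxp3+ cell can lack captured Ikzf2 UMIs as well, so this setting need not remove such cells. The regulatory T cell list had no median under it. Checkpoint and anergy genes, which share Ctla4, Nt5e and Pdcd1 with other lists, had 4 of 10 higher and 1 lower in Y665F, with a median of 0.40, against 1 higher, 0 lower and a median of 0.41 in Y665H.

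Helper lineage genes were sparse. Of the Th1 and cytotoxic genes 5 were measured at 10 CPM or more and 0 were past 2-fold in either mutant. Of the Th2 genes only Gata3 reached the filter, at 59.2, 55.4 and 84.7 CPM, and the Th17 list likewise had 1 measured gene, Rora, with a log2 ratio of -0.81 in Y665F and 0.13 in Y665H. The Y665F value was -0.01 without the cells holding UMIs of 6 genes of other cells. Tbx21, the Th1 factor, stood at 7.57, 7.11 and 8.11 CPM. Of 9 follicular helper genes 9 lay above 0 in Y665H, with a median of 0.21, and 4 in Y665F, with a median of -0.12, which became 0.03 with scaling by the median ratio. Over all 7493 genes 4001 lay above 0 in Y665H and 2110 in Y665F. Cxcr5, the follicle homing receptor, was at 11.1, 20.5 and 8.11 CPM. Of this list Cxcr5 and Bcl6 reached the filter only through their Y665H level, and Pdcd1 only with the levels of both mutants. The counts and medians of the list thus follow partly from the filter. Among 11 homing and chemokine receptors 1, Ccr9, was past 2-fold in Y665F, and 0 were in Y665H.

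Interferon, early response and heat shock lists had few members past 2-fold. Of 22 interferon-induced genes 1, Ly6c2, was at least 2-fold higher in Y665F and 0 were lower, with a median of -0.01. In Y665H 0 were past 2-fold, with a median of 0.06. Immediate early genes, which respond within minutes to receptor signals and to tissue handling, had 16 of 19 members below 0 in Y665F and 17 above 0 in Y665H, where 5383 and 4001 of all 7493 genes lay on those sides. The medians were -0.29 and 0.10. Fos stood at 36.3, 70.4 and 29.7 CPM. All 9 measured heat shock genes were above 0 in both mutants, with medians of 0.26 and 0.30, and Hspb1 stayed below the filter. Of all 7493 genes 2110 lay above 0 in Y665F and 4001 in Y665H. Hspa1b, the inducible chaperone, stood at 1.77, 19.5 and 28.3 CPM, so WT was the library apart.

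Once genes of B cell and neutrophil type were set aside, Pdcd1 and genes of dividing cells led the increase in Y665H. Mki67, the proliferation antigen, stood at 14.6, 39.7 and 17.5 CPM, a log2 ratio of 1.44 (1.14 to 1.76) in Y665H. Pclaf, a PCNA-binding factor of replication, was at 11.1, 26.3 and 7.07 CPM, and the histone genes Hist1h1b, Hist1h2ae and Hist1h2ab had log2 ratios of 1.15, 1.33 and 1.13. Pclaf reached the filter only through its Y665H level, so its place among the leading genes follows partly from the filter. Of 8 measured cell cycle genes 2 were at least 2-fold higher in Y665H and 0 lower, with a median of 0.27, and 0 were past 2-fold in Y665F, with a median of -0.09. The Y665H median of the cell cycle list was -0.05 without the cells above the 95th percentile of UMIs and 0.06 as a mean of the CPM of each cell. Some of these counts rest on few cells. Mki67 was seen in 33 of 1322 WT, 60 of 1533 Y665H and 26 of 722 Y665F cells. In Y665F a single cell held 42.9% of the Mki67 UMIs. For Hist1h1b a single cell held 52.5% of the UMIs in WT, 50.8% in Y665H and 87.9% in Y665F. The other leading genes of Y665H were Pdcd1, Ttn and Cks2 above WT. Below WT were Drc1, Socs2, Dapl1, Akr1c13, A530021J07Rik, Gm27240, Ifit3 and a gene of the Sept2 symbol that shares its exons with another on the same strand. Dapl1, at 129 against 244 CPM, was the most abundant of these. Drc1 and Socs2 were past 2-fold but stood under 5 CPM in WT and Y665H, and like Akr1c13 and Gm27240 they reached the filter only through their Y665F level. Pdcd1 reached it only with the levels of both mutants, so its place here follows partly from the filter.

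Small groups of innate-like cells can sit inside the gate. Gamma-delta, NKT and innate lymphoid markers summed to 22.4, 17.7 and 27.2 CPM, and NK cell markers to 47.2, 101 and 43.3 CPM. Of the NK cell list 2 genes reached the filter, Fcer1g at 9.59, 26.2 and 13.5 CPM and Tyrobp at 15.4, 43.97 and 23.5 CPM, both also known from myeloid cells and higher in both mutants. The Y665F median of the list, 0.55, turned to -0.33 with each cell thinned to 2000 UMIs. It turned to -3.16 without the cells holding UMIs of 6 genes of other cells. Zbtb16, the factor PLZF that defines NKT cells, had 46 UMIs in WT, 40 in Y665H and 0 in Y665F, which is at least 9.30-fold lower in Y665F with a floor of 3 counts per library. Ncr1, an NK cell receptor, had 16, 41 and 0 UMIs, at least 3.23-fold lower in Y665F. Cd160, a receptor of cytotoxic and NKT cells, stood at 11.6, 9.10 and 1.04 CPM. Tcrg-C1, a constant segment of the gamma receptor chain, went the other way, with 10, 9 and 83 UMIs, the last from 45 cells.

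The make-up of the chosen cells was described by the genes they held. Cells thinned to 2000 UMIs were sorted by S100a4, a memory gene, and Ccr7, the homing receptor of naive cells. Of the thinned cells, 4.57% of WT, 7.43% of Y665H and 12.05% of Y665F held S100a4, against 0.634%, 1.09% and 1.003% of B cells. The share in Y665F was 2.64 times that in WT (1.92 to 3.62), and in Y665H 1.63 times (1.20 to 2.21). Without thinning the shares were 6.13%, 10.9% and 15.7%. Ccr7 without S100a4 was seen in 33.0%, 30.05% and 29.5% of cells, and in 19.9%, 23.4% and 28.2% of B cells, which also express it. Ccl5, a chemokine of effector cells, was seen in 9.28%, 8.28% and 13.7%, against 7.12%, 6.03% and 8.02% of B cells, and in 19.9%, 15.9% and 28.9% of CD4 T cells without thinning. The follicular helper gate held 0.685%, 1.18% and 0.277% of cells, at or below the 2.18%, 1.68% and 1.86% of B cells, and was read as background. Thinning left out 8 cells of WT, 12 of Y665H and 0 of Y665F.

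**Figure D3:**
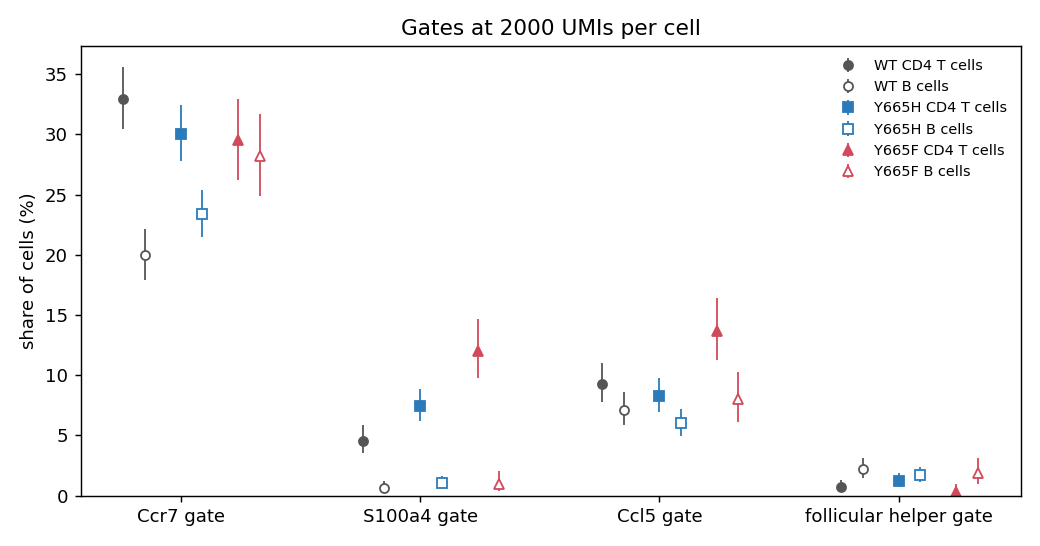
Share of cells in each gate at 2000 UMIs, in percent, with exact 95% intervals, for CD4 T cells (filled) and B cells (open) of the 3 spleen libraries. The S100a4 gate holds 4.57%, 7.43% and 12.05% of the CD4 T cells and at most 1.09% of the B cells.

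Differences were then read within those groups of cells. The Ccr7 group held 433 WT and 213 Y665F cells, the group with neither gene 821 and 422, and the S100a4 group 60 and 87. The log2 ratio of Cish, Y665F to WT, was 1.58 (1.05 to 2.13) in the Ccr7 group, 2.23 (1.90 to 2.58) in the group with neither and 3.03 (2.18 to 4.02) in the S100a4 group. That of Bcl2 was 1.33, 1.42 and 1.16, that of Dapl1 1.11, 1.31 and 1.69, and that of Socs1 1.12, 1.39 and 1.65. All 4 genes were thus higher in Y665F in every group. Itm2a and Lef1 were not alike across groups. The ratio of Itm2a was -1.41 and -1.47 in the first groups and 1.12 (-0.88 to 3.64) among S100a4 cells, and that of Lef1 -0.64, -0.68 and 0.10. Igfbp4 was at 1.31, 1.18 and -0.01. Of the 12 leading higher genes 11 lay above 0 and 0 below in the Ccr7 group, 12 and 0 in the group with neither and 10 and 0 in the S100a4 group. Of the 12 lower genes 11 lay below 0 and 0 above in the Ccr7 group, 12 and 0 in the group with neither and 5 and 3 in the S100a4 group. The remaining genes had 0 UMIs in a library and no value. These genes were chosen on the same cells, so their direction in the groups largely follows from the choice and is a description.

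**Figure D4:**
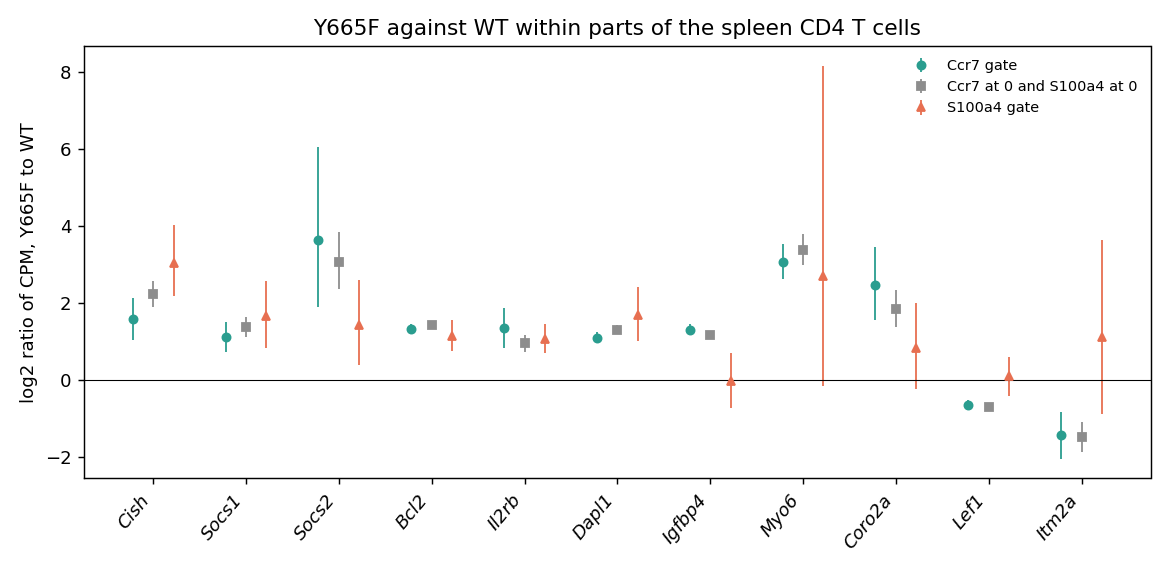
Log2 ratio of CPM, Y665F to WT, for 11 genes within cells with Ccr7, cells with neither Ccr7 nor S100a4, and cells with S100a4, with 95% counting intervals. Cish lies above 0 in all 3 groups, at 1.58, 2.23 and 3.03, while Igfbp4 lies at -0.01 among S100a4 cells.

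Lymph node libraries allowed a test over replicate libraries. The same gate, at a minimum of 200 genes because these libraries were shallower, took 2583 cells. They came from WT libraries with 290 and 708 cells, het libraries with 771, 404 and 56 and homo libraries with 54 and 300. The 7 summed libraries were tested in 1 edgeR quasi-likelihood model over 6157 genes, in which het and homo share the WT libraries. The libraries with 56 and 54 cells held 29004 and 28294 UMIs, so that 1 UMI there stands for about 35 CPM. Levels were not compared between lymph node and spleen.

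Y665F homo lymph node CD4 T cells differed from WT in 17 genes (0.276%), counting those past 2-fold whose p stayed under 0.05 after Benjamini-Hochberg adjustment, of which 13 rose (0.211%) and 4 fell (0.065%). Dapl1 stood at 223 and 234 CPM in the WT libraries. The het libraries had 623, 604 and 517 CPM and the homo libraries 424 and 840, with no overlap of either group with WT. On the log2 scale it rose by 1.74 ± 0.217 (SE) in homo (edgeR adjusted p = 1.13e-06) and by 1.45 ± 0.184 (SE) in het (edgeR adjusted p = 1.88e-06). Pim1 was at 91.1 and 117 CPM in WT and 212 and 314 in homo, and rose by 1.51 (edgeR adjusted p = 5.06e-05), while the het libraries at 117, 132 and 172 CPM did not pass. Lgals1 rose by 1.48 in homo (edgeR adjusted p = 0.00089), from 129 and 115 CPM to 283 and 331. Coro2a, a coronin of the actin skeleton, stood at 0 and 9.51 CPM in WT. Het libraries had 37.4, 37.0 and 34.5 CPM and homo libraries 70.7 and 49.4. It rose in both arms, by 2.86 (edgeR adjusted p = 0.00983) and 2.44 (edgeR adjusted p = 0.000376), but without WT replicate 2, which leaves the WT library at 0, the Coro2a values became 8.08 and 7.67, which depend on the prior count. The homo call of Coro2a was lost with the replicate block (edgeR adjusted p = 0.0821) and without het replicate 1 or 2 or homo replicate 2, and the het call without het replicate 1 (edgeR adjusted p = 0.25). In spleen Coro2a stood at 10.2, 7.88 and 38.7 CPM. Myo6 rose by 3.66 in homo (edgeR adjusted p = 0.00334), but its homo libraries held 0 and 69.8 CPM against 2.94 and 5.70 in WT, so the homo call rests on homo replicate 2 and turned to -4.98 without it. In het Myo6 rose by 2.44 (edgeR adjusted p = 0.031), a call lost with DESeq2 and without WT replicate 2. Ly6c1 and Pdlim4 also rose in homo, and Izumo1r, the folate receptor 4 of regulatory and anergic cells, fell by 1.37 there. Ly6c1 rose in het as well, by 1.18 (edgeR adjusted p = 0.000124), a call lost with DESeq2 and without het replicate 1. Without WT replicate 2 the calls of Pdlim4 (edgeR adjusted p = 0.337) and Izumo1r (edgeR adjusted p = 0.0726) were lost. Without homo replicate 2, which leaves the homo arm with 1 library of 54 cells that is assumed to vary like the other groups, 0 genes were called in homo, with Dapl1 at 0.47 (edgeR adjusted p = 0.79) and Pim1 at 0.55 (edgeR adjusted p = 0.809). DESeq2 called 0 genes in either arm.

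In het mice 21 genes passed (0.341%), of which 5 rose (0.0812%) and 16 fell (0.26%). Itm2a fell by 1.38 ± 0.179 (SE, edgeR adjusted p = 1.88e-06), from 170 and 169 CPM in WT to 59.7, 67.4 and 34.5, and stood at 70.7 and 75.6 in homo, below WT in both libraries (log2 fold change -1.13, edgeR adjusted p = 0.084). Those that fell in het include Cd74, Igkc, H2-Aa and H2-Ab1, genes of antigen-presenting cells and B cells. The share of such cells in the lymph node gate was not tested. Bcl2 stood at 115 and 125 CPM in WT. Het libraries had 218, 223 and 241 CPM, homo libraries 212 and 218. Its log2 fold change was 0.93 in het (edgeR adjusted p = 0.000376), under the 2-fold limit, and 0.87 in homo (edgeR adjusted p = 0.104). Het and homo libraries all lay above both WT libraries but not apart from each other. With so few libraries this separation alone shows little.

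Several of the leading spleen genes could not be shown in lymph node. Cish stood at 8.82 and 25.7 CPM in WT. With 33.9, 44.9 and 103 CPM (het) and 70.7 and 49.4 CPM (homo), all were above WT, but it did not pass (1.31 ± 0.491 on the log2 scale in homo, edgeR adjusted p = 0.439, and 2.49 without WT replicate 2). Tmie, at 49.97 and 29.5 CPM in WT and 35.3 and 11.6 in homo, overlapped (edgeR adjusted p = 0.719). Socs1 and Il2rb had log2 fold changes of -0.33 and -0.29 in homo, with edgeR adjusted p of 0.903 and 0.954, and turned to 0.098 and 0.36 without WT replicate 2. Socs3 fell by 1.09 in het (edgeR adjusted p = 0.0154), with a log2 fold change of -0.69 in homo (edgeR adjusted p = 0.794). WT libraries held 44.1 and 144 CPM of Socs3. Het libraries had 49.9, 43.6 and 207 CPM, homo libraries 177 and 58.2, so the groups overlapped. Without WT replicate 2 the Socs3 values turned to 0.21 in het (edgeR adjusted p = 1) and 0.60 in homo. Socs2 and Drc1 were too low to enter the model. Where a gene did not pass, the depth of these libraries does not show that it was alike.

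**Figure D5:**
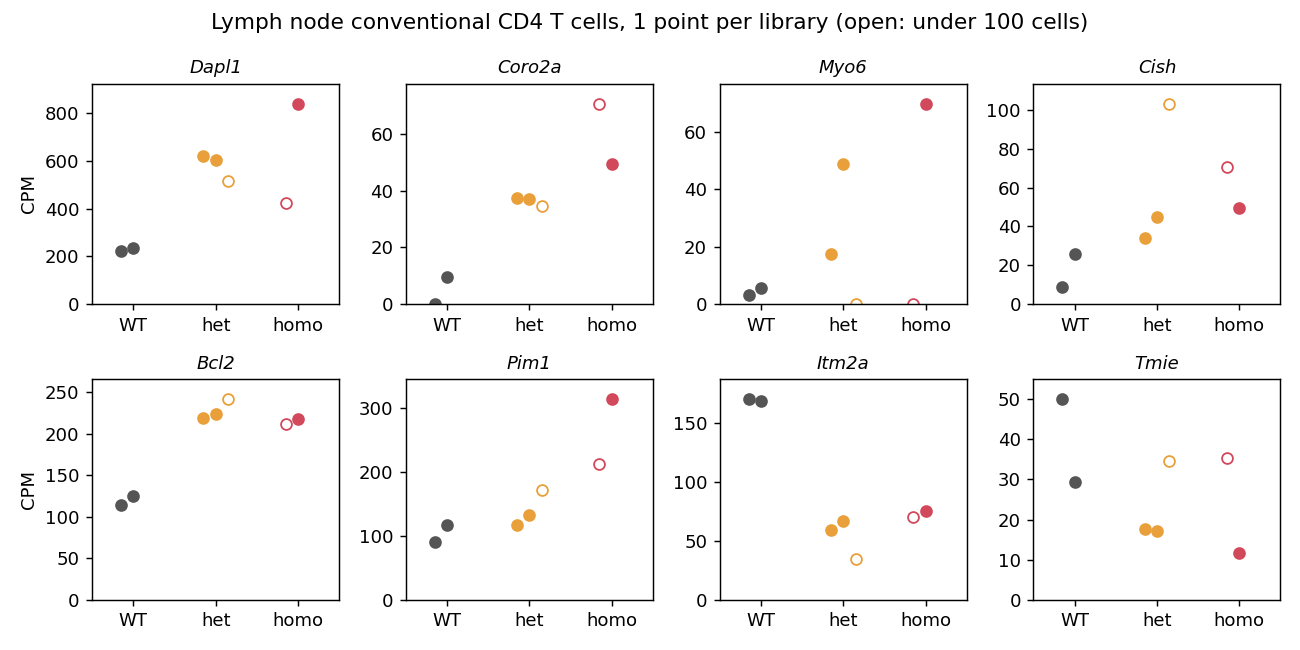
Levels of 8 genes in lymph node conventional CD4 T cells, in CPM, with 1 point per library for WT (n = 2), het (n = 3) and homo (n = 2), open where under 100 cells were summed. Dapl1 and Bcl2 lie above both WT libraries in every het and homo library, and Itm2a below.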

How the data were processed

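Counts of UMIs per gene and barcode were deposited as made by the authors with Cell Ranger (per the file headers 6.0.0 for spleen and 5.0.0 for lymph node, against mm10). The labels name a 3′ kit and the methods a 5′ kit, so levels were compared only within a tissue. The cells, gene lists and named genes were chosen with earlier results of these data known. Counts were summed over the chosen cells of a library and scaled to CPM (Python 3.11.15, scipy 1.17.1). Levels have exact Poisson intervals, shares Clopper-Pearson intervals, ratios of CPM exact conditional intervals and ratios of shares log-normal intervals, all 95%. Depths are given with the markers of the gate. Named were the 12 genes with the largest difference in each direction for Y665F and the 8 for Y665H, at a mean of 10 CPM or more, without mitochondrial, immunoglobulin, receptor variable, sex-linked, gate, B cell type and neutrophil type genes, and from each list the extremes and best known members. Some genes that this rule names are not reported here. Doublets were held back by the gate alone. Thinning drew 2000 UMIs per cell without replacement. Lymph node counts were tested with edgeR 4.0.16 (TMM, filterByExpr, glmQLFit, R 4.3.3). Each SE of a lymph node log2 fold change was derived from the test, as its absolute value over the square root of the F statistic. Nothing says which mice gave which library, so p-values measure the spread between libraries. Alternatives covered the gate limits, scaling, thinning, the level filter, DESeq2 1.42.0, a replicate block and leaving out each library. Of 32285 gene identifiers, 32158 matched the GENCODE vM21 annotation of GRCm38.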

Additional observations from a re-analysis of the deposited data

How the results depend on the processing

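Genes past 2-fold in spleen depended on the level filter and on which cells were kept. For Y665F the count of 123 became 235 at a mean of 5 CPM, 55 at 20 CPM, 71 with 5 added to CPM, 235 after thinning to 2000 UMIs and 298 (81 higher, 217 lower) without cells holding a UMI of 6 genes of other cells. For Y665H the count of 38 became 77 at 5 CPM, 16 at 20 CPM, 25 without the cells above the 95th percentile of UMIs and 78 without the cells with UMIs of the 6 genes. The cause was not tested. All 24 genes named for Y665F kept their direction under every gate, scaling and thinning alternative except Hba-a1, which turned to 0.046 without the cells with UMIs of the 6 genes, and all 16 named for Y665H did wherever a value was had. Of 215 such values for Y665F 22 moved beyond the counting interval, and of 142 for Y665H 32 did. Hba-a1 had no value after thinning, nor Drc1 in Y665H after thinning or without the cells with UMIs of the 6 genes. Totals without Gm42418 and mitochondrial genes, an alternative chosen after seeing the data, gave 132 and 41 genes. The Y665F to WT ratio of the CD4 share became 0.673 when barcodes were thinned first.

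In lymph node DESeq2 called 0 genes in either arm, with 46 (homo) and 12 (het) at an unadjusted p under 0.05, against 429 and 342 in edgeR. The het count of 21 became 64 without the filter. Leaving out 1 library gave between 0 and 29 genes for homo and between 5 and 45 for het. Homo was at 0 without homo replicate 2 (430 genes at an unadjusted p under 0.05), 7 and 8 without het replicate 2 or 1, and 27 and 29 without homo replicate 1 or het replicate 3. Het was at 5 and 12 without het replicate 1 or 2 and at 13 without WT replicate 2. It was at 32 and 38 without het replicate 3 or WT replicate 1, and at 41 and 45 when homo replicate 1 or 2 was left out. In homo Dapl1, Pim1, Lgals1 and Ly6c1 were called in 9 of 11 alternatives, and adjusted p over them ran up to 0.79 for Dapl1 and 1 for Pim1, Lgals1 and Ly6c1, each 1 from DESeq2. Pdlim4 and Izumo1r were called in 8 of 11, Coro2a in 6 of 11, and Myo6 in 8 of 10, with values from -4.98 (without homo replicate 2) to 4.34. In het Socs3 ran from -1.42 to 0.21 when 1 library was left out, without WT replicate 1 and 2, and did not pass with DESeq2, the replicate block, or without het replicate 1 or 2. The replicate block gave 8 genes in homo and 11 in het. Libraries of the same number had correlations of -0.09 to 0.0803 in their deviations from group means. In a group with only replicates 1 and 2 the deviations mirror each other. These values therefore cannot tell whether the numbers pair the libraries.

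Depth limits genes under about 1 CPM in spleen, where 3 counts stand for 0.378 (WT), 0.333 (Y665H) and 0.624 CPM (Y665F). One pooled library per genotype cannot separate genotype from library.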
